A study of Mus musculus with 2 samples.

Results

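Epithelial progenitor and stem cell markers were examined in the diseased prostate of mice that carry an Osr1-driven human androgen receptor transgene. The set was given by name and holds 8 genes out of 19320 features in the table: Cd44, Prom1, Kit, Sox9, Sox4, Sox2, Aldh1a1 and Bmi1. All 8 had UMIs (unique molecular identifiers, tags that mark single captured RNA molecules) in the epithelial cells. Prostate tissue was digested with collagenase and TrypLE, and single cells were sequenced in droplets from the 3' ends of their transcripts. The 2 samples were prostatic intraepithelial neoplasia (PIN) and prostatic adenocarcinoma (PCa), 1 library each. The study's methods give the mice as R26 mTmG/hAR : Osr1 Cre/+, so both groups carried the same alleles, and the PCa tissue came from older animals than the PIN tissue. Cre under the control of Osr1 switched on both the transgene (hARtg) and a membrane-bound green fluorescent protein (mGFP), so the reporter marks cells that expressed Osr1 at any time in their history. No mice without the transgene belonged to the samples used here, and how many animals made up a library was not given.

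Each cell barcode ended in 1 of 2 digits, and neither labels nor table name the tissue behind each digit. Cells with these endings are called barcode set 1 and set 2, and no cell was assigned to PIN or PCa. Set, tissue, library and animal cannot be told apart. Since each set is 1 library, no p-value was computed, and every interval below covers counting error only.

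Prostate epithelium consists of a basal layer, a secretory luminal layer and, near the urethra, proximal luminal cells. Cells able to renew the gland have been sought in all of these compartments, with surface proteins, transcription factors and enzymes used as markers. Such genes also serve in other tissues, so RNA of a marker does not by itself identify a stem cell. Cd44 encodes the receptor for hyaluronan, Prom1 the membrane protein prominin-1 (CD133), and Kit the receptor tyrosine kinase for stem cell factor. Sox9, Sox4 and Sox2 encode transcription factors of the SOX family. Aldh1a1 encodes an aldehyde dehydrogenase that makes retinoic acid, and Bmi1 a subunit of the Polycomb repressive complex that silences genes through histone ubiquitination.

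Sequences next to the start sites are shown for the members whose levels varied most between cell classes (Prom1 and Sox2). They are also shown for those that differed in opposite directions with the reporter in set 1 (Cd44 and Aldh1a1). The 250 bases upstream of each start were taken from RefSeq annotation of GRCm38.p6. Windows were found for 7 of the 8 members, 10 windows in all, and Sox9 had no entry. Capitals mark matches, on either strand, to the androgen receptor half-site AGAACA, the SOX motif AACAAT, the CCAAT box named by its letters, the GC box with the letters GGGCGG, or the TATA box with the letters TATAAA.
Prom1 start 1, chr5:44101737-44101986, minus strand: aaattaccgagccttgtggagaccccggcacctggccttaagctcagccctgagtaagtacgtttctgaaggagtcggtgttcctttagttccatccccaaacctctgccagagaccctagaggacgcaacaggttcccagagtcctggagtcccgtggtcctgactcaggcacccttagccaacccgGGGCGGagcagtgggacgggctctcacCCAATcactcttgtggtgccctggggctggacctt
Prom1 start 2, chr5:44094769-44095018, minus strand: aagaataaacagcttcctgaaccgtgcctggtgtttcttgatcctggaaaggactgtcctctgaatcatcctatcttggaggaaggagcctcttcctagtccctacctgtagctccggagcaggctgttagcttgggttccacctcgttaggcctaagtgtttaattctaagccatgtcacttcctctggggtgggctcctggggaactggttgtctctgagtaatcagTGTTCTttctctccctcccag
Sox2 start 1, chr3:34649745-34649994, plus strand: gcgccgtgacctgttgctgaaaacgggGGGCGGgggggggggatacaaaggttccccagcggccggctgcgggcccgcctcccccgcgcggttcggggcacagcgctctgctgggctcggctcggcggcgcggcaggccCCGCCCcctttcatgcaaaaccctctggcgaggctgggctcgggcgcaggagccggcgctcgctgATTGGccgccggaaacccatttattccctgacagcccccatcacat
Cd44 start 1, chr2:102901666-102901915, minus strand: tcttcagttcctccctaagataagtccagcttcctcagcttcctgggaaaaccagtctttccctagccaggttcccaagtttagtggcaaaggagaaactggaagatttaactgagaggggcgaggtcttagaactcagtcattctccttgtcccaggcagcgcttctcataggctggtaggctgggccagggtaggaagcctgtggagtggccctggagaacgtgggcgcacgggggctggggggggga
Aldh1a1 start 1, chr19:20492333-20492582, plus strand: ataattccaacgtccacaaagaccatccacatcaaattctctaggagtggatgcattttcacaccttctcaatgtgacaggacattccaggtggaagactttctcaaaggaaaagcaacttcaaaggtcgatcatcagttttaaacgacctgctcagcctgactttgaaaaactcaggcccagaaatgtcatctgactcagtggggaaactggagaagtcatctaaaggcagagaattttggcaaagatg
Aldh1a1 start 2, chr19:20601718-20601967, plus strand: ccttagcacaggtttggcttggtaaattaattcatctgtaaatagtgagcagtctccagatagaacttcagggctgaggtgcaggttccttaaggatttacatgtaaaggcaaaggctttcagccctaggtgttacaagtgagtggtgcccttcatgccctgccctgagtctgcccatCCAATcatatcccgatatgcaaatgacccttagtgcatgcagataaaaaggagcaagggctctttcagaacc
The second Prom1 window held the only androgen receptor half-site among the 10 windows, 21 bases before the start on the reverse strand. That motif occurred in 16.1% of all 32851 windows of 250 bases. The first Prom1 window held 1 CCAAT box and 1 GC box, and the Sox2 window 1 CCAAT box and 2 GC boxes. No match was found upstream of Cd44 or the first Aldh1a1 start, and the second Aldh1a1 window held 1 CCAAT box. Among the windows not printed, Sox4 held 4 CCAAT boxes, Bmi1 6 GC boxes, some of which overlap (4 bases lie in 2 matches), and each of the 2 Kit windows 1 GC box. CCAAT occurred in 33.9% of all windows, the GC box in 32.7%, the SOX motif in 9.42% and the TATA box in 12.4%, and no window of a member held the last 2 of these. Reads from the 3' end of transcripts do not show which start site was used. Each Prom1, Aldh1a1 and Kit value is therefore a sum over both starts.

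The table held 15742 cells, 6332 in set 1 and 9410 in set 2, with median depths of 17235 and 14824.5 UMIs. After removal of called doublets, 13155 epithelial cells formed 11 clusters. The members were kept out of the genes used for clustering. Basal cells (Krt14-led cluster, with Krt5 and Trp63) numbered 1691 in set 1 and 360 in set 2. Luminal cells (named from 7 markers, Krt8, Krt18, Hoxb13 and Pbsn among them) numbered 2186 and 5719, and proximal cells (high Krt4, Ppp1r1b, Wfdc2) 602 and 226. Of the 5 proximal markers, Aqp3 was lower in proximal than in basal cells (30.9 against 392 CPM in set 1 and 1.78 against 81.8 in set 2). The luminal class had a different make-up in each set. In set 1 it was mainly the Krt6a-led (1194 cells), 9530053A07Rik-led (576) and Msmb-led (400) clusters, and in set 2 the Mt4-led (2179), Gja1-led (1938) and Defa22-led (1151) clusters. Of the 7 luminal markers, 5 were seen in at least 25% of cells in the Gja1-led and Defa22-led clusters. In the other clusters named here 7 were. A cluster led by Svs5 and other seminal vesicle genes (288 and 2010 cells) and a Jchain-led cluster with leukocyte markers (54 and 19 cells) stayed unnamed and outside the classes. Without integration of the sets, the Svs5-led cluster held 0 cells of set 1 and 1974 of set 2. Whether its set 1 cells are of the same type as those of set 2 was not tested. Altogether 67 barcodes occurred with both endings.

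Levels were expressed as CPM, a gene's UMIs scaled to a common total after summing over the cells of a class. Cd44 was highest in proximal cells of both sets, at 451 CPM (95% Poisson interval 442 to 461) in set 1 and 346 (329 to 364) in set 2. In basal cells it reached 260.1 CPM in set 1 and 139.7 in set 2. In luminal cells it reached 321 CPM in set 1 and 20.1 (19.3 to 20.9) in set 2. The gap between the sets was thus far wider in luminal than in basal or proximal cells. The order proximal, luminal, basal in set 1 became proximal, basal, luminal in set 2, with no overlap of the intervals. In set 2 the proximal value rested on the Msln-led cluster (558 CPM, 135 cells). The Sbpl-led proximal cluster of set 2 (91 cells) had 29.5 CPM, under the basal level. Without integration an Sbpl-led cluster of 4 cells of set 1 and 96 of set 2 was named luminal. The proximal name of the Sbpl-led cells of set 2 therefore depends on the clustering. The luminal value of set 1 rested on the Krt6a-led cluster, which gave 18746 of the 22229 luminal Cd44 UMIs at 501 CPM. The 9530053A07Rik-led and Msmb-led clusters of set 1 had 172 and 49.8 CPM, both under the basal level. Krt6a-led cells were named proximal in the first clustering of all cells and in the epithelial clustering without integration at resolution 1.0, so the place of luminal cells in the order of set 1 depends on that name. Leukocytes, which use CD44 to adhere and migrate, had 200.1 and 264 CPM, so Cd44 was not restricted to epithelium. The leukocytes were mainly the Ccl5-led (746 cells) and Rgs1-led (212) clusters in set 1 and the C1qa-led cluster (212) in set 2. Leukocyte values of the 2 sets therefore differ in cell type as well.

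By class, Prom1 was lower in basal than in luminal and proximal cells in both sets. In set 2 this did not hold for most luminal cells, since the Mt4-led, Gja1-led and Defa22-led clusters had 0.18 to 0.26 CPM. Basal cells had 0.82 CPM (0.48 to 1.29) in set 1, from 18 UMIs, and 1.12 (0.23 to 3.28) in set 2, from 3 UMIs. Luminal cells had 26.3 and 6.24 CPM, and proximal cells 25.5 and 16.5. The basal values lay at the level of the leukocytes, at 0.80 and 1.34 CPM. In set 1 luminal and proximal cells did not differ beyond their intervals, whereas in set 2 proximal cells were higher.

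Kit was scarce in epithelial cells. In set 1 basal cells had 0.999 CPM, luminal cells 0.32 and proximal cells 1.03, from 20 to 22 UMIs each. In set 2 luminal cells had 3.87 CPM (460 UMIs), proximal cells 2.23 (10 UMIs) and basal cells 0 UMIs, for which the floor of 3 UMIs corresponds to 1.12 CPM. Leukocytes of set 1 had 44.8 CPM and those of set 2 had 3.58, and endothelial cells 45.3 and 88.6. Luminal Kit in set 2 therefore overlapped the leukocyte value of the same set (interval 1.55 to 7.06). The summed mast cell markers, which would mark another Kit-bearing cell, reached at most 0.174 CPM in the epithelial groups compared.

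Sox9, which takes part in prostate budding, was abundant in all classes. It measured 345 CPM in basal, 448 in luminal and 475 in proximal cells of set 1. In set 2 it measured 318, 148 and 458 CPM in the same order. Basal and proximal values lay close together between the sets, and luminal Sox9 was 3.02-fold lower in set 2. Leukocytes had 16.9 and 19.7 CPM.

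Sox4, a SOX factor of many progenitor cells, was highest in basal cells, at 345 CPM in set 1 and 245 in set 2. Luminal cells had 140.6 and 61.4 CPM, and proximal cells 144 and 137. Luminal and proximal Sox4 did not differ beyond their intervals in set 1. In endothelial cells it was higher than in any epithelial class, at 607 CPM (40 cells) and 1166 CPM (170 cells).

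Sox2, a regulator of pluripotency and of basal cells in several epithelia, was low and mainly basal. Basal cells had 26.5 CPM (24.4 to 28.8) in set 1 and 18.3 (13.5 to 24.2) in set 2, from 584 and 49 UMIs. Proximal cells had 10.8 and 3.34 CPM. Luminal cells had 4.67 CPM in set 1 and 0.067 in set 2, the latter from 8 UMIs in 5719 cells. The order basal, proximal, luminal was the same in both sets, with no overlap of the intervals.

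Aldh1a1 hardly varied between classes. Its level was 111 CPM in basal, 98.9 in luminal and 116 in proximal cells of set 1. The matching values of set 2 were 112, 98.3 and 85.9 CPM. Leukocytes had 4.98 and 9.40 CPM. Bmi1 was low throughout, between 7.47 CPM in basal cells of set 2 and 13.8 CPM in luminal cells of set 1. Leukocytes had 21.9 and 10.7 CPM of Bmi1, so the epithelial cells did not exceed them in set 1, and the intervals overlapped in set 2.

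**Figure D1:**
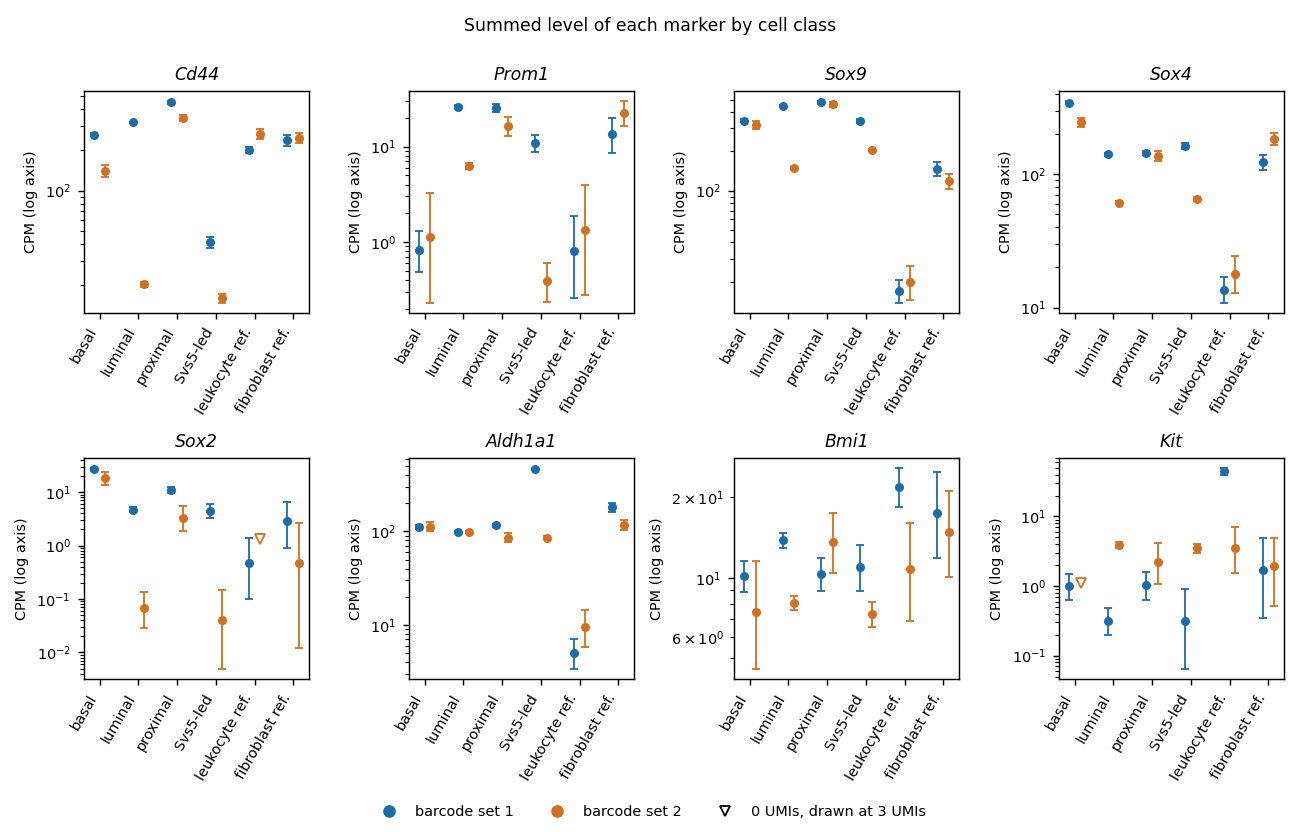
Level of each of the 8 members in CPM on a log axis, by barcode set, for the 3 epithelial classes, the Svs5-led cluster, the leukocytes and the Apod-led cluster (fibroblast ref.), with exact Poisson 95% intervals for counting error and open triangles for 0 UMIs drawn at 3 UMIs. Prom1 is near 1 CPM in basal cells of both sets, Sox2 is highest in basal cells, and luminal Cd44 is 321 CPM in set 1 and 20.1 CPM in set 2.

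Shares of positive cells were compared after each cell was thinned to 3000 UMIs, because basal cells (median 10815 and 5493 UMIs) were shallower than luminal (28563 and 15809) and proximal cells (29446 and 17961.5). Cd44 was seen in 47.7% of basal, 48.8% of luminal and 59.3% of proximal cells of set 1, and in 25.2%, 5.19% and 38.0% in set 2. Unthinned, these shares were 76.3%, 81.4% and 91.7% in set 1 and 43.6%, 23.0% and 58.4% in set 2. The endothelial cells of set 2, a class low in Cd44, gave a thinned share of 1.32% (median depth 8518 UMIs). For Prom1 the thinned shares were 0.12% in basal, 8.28% in luminal and 8.38% in proximal cells of set 1. The basal share was no higher than the 0.24% of leukocytes (2 of 843 cells) and counts as background. In set 2 the Prom1 shares were 0.59%, 1.32% and 4.98%, and leukocytes had 0 of 252 cells, which allows a share of up to 1.19%. The leukocytes were shallow, with median depths of 3815.5 and 7038.5 UMIs before thinning.

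Sox2 was seen in 8.09% of basal cells of set 1 (95% Clopper-Pearson interval 6.83 to 9.51) and 5.34% of set 2 (3.2 to 8.31). Proximal cells had 3.02% and 0.45%, and luminal cells 1.61% and 0 of 5670 cells, which allows up to 0.053%. Leukocytes had 0 of 843 and 0 of 252 cells with Sox2. Sox9 was seen in 53.5% of basal, 64.0% of luminal and 67.5% of proximal cells of set 1, and 49.9%, 30.2% and 58.4% of set 2, against 2.25% and 1.98% of leukocytes. Sox4 was seen in 46.0% and 32.0% of basal cells, against 1.66% and 3.17% of leukocytes. Aldh1a1 shares ranged from 17.6% to 27.3% over the 6 class and set combinations, against 0.83% and 1.98% in leukocytes. Bmi1 shares, from 1.78% to 3.72%, did not exceed the 5.22% of leukocytes in set 1, and 1 of 3 classes lay above their 3.17% in set 2 with overlapping intervals. Kit was seen in at most 1.25% of the cells of any class (luminal, set 2), against 9.73% and 0.79% of leukocytes. The Apod-led cluster, which holds fibroblast genes, gave 0 of 184 and 0 of 299 cells with Kit, which allows shares of up to 1.63% and 1.003%. The luminal share of set 2 overlapped that of the leukocytes of set 2 (interval 0.10 to 2.84).

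The number of members seen per thinned cell was counted. Whether members met in a cell more often than their single shares give was not tested. At least 2 of the 8 were seen in 60.2% of basal, 58.2% of luminal and 67.5% of proximal cells of set 1. The same shares were 42.4%, 15.9% and 43.4% in set 2. Leukocytes reached 8.30% and 5.16%, the Apod-led cluster 38.0% and 34.8%, and endothelial cells 22.9% and 27.6%. Luminal cells of set 2 thus had the lowest share of the 6 class and set combinations, and the Svs5-led cluster of set 2 had a similar 16.9%.

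**Figure D2:**
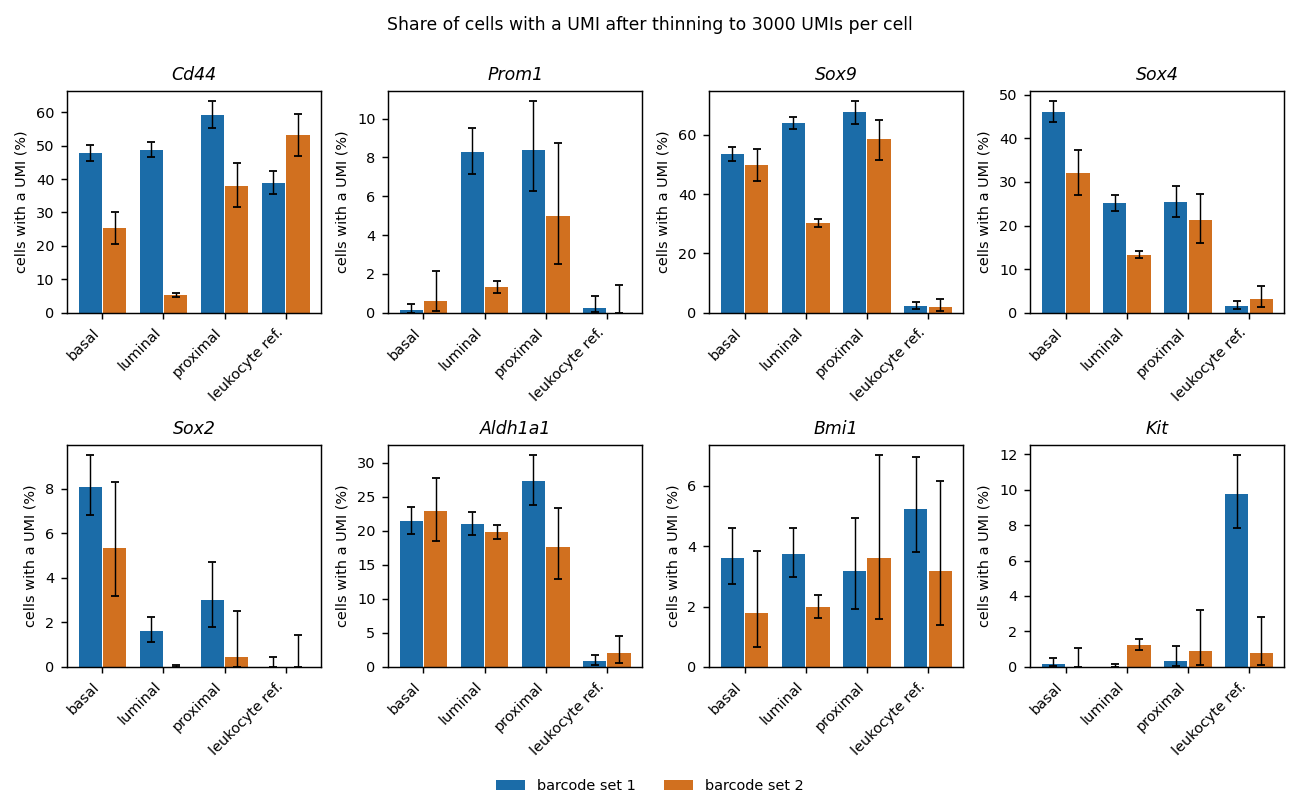
Share of cells, in percent, with at least 1 UMI of each member after thinning to 3000 UMIs per cell, for basal, luminal and proximal cells and the leukocytes of each set, as bars with Clopper-Pearson 95% intervals. Sox9, Sox4 and Cd44 are seen in a large share of basal cells, whereas Prom1, Sox2, Bmi1 and Kit are each seen in under 10% of the cells of every epithelial class.

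Basal and luminal cells were compared within each set by the log2 ratio of CPM, and a member past 2-fold was counted. In set 1, 4 of 8 members were past 2-fold, where 41.5% of all features with at least 20 UMIs were. Prom1 was lower in basal cells (log2 ratio -5.01, 95% interval -5.76 to -4.34), and Sox2 (2.51), Sox4 (1.29) and Kit (1.65) were higher. In set 2, 6 of 8 were past 2-fold, where 47.9% of all features were. Sox2 (log2 ratio 8.09, interval 7.0 to 9.38), Cd44 (2.80), Sox4 (2.00) and Sox9 (1.10) were higher in basal cells. Prom1 (-2.48, interval -4.76 to -0.92, 3 basal UMIs) was lower, and Kit, with 0 basal UMIs, was at least 3.46-fold lower. Over both sets, Sox2 and Sox4 were higher and Prom1 lower past 2-fold, and Kit took opposite directions. The median log2 ratio of the members was -0.07 in set 1 and 0.65 in set 2, and that of all features -0.27 and -0.04. Aldh1a1 (0.17 and 0.19) and Bmi1 (-0.44 and -0.11) stayed under 2-fold in both sets, and Cd44 (-0.30) and Sox9 (-0.38) in set 1.

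The comparison of proximal with luminal cells gave 2 of 8 members past 2-fold in set 1, against 16.3% of all features. These were Sox2 (log2 ratio 1.22, interval 0.96 to 1.47) and Kit (1.69, from 20 and 22 UMIs), both higher in proximal cells. In set 2, 5 of 8 were past 2-fold, all higher in proximal cells, against 32.2% of all features. Their log2 ratios were 5.63 for Sox2, 4.11 for Cd44, 1.62 for Sox9, 1.40 for Prom1 and 1.16 for Sox4. Sox2 was the member past 2-fold in both sets. Under 2-fold were Aldh1a1 (0.23 and -0.19) and Bmi1 (-0.42 and 0.75) in both sets, and Kit in set 2 (-0.80, interval -1.87 to 0.09). In set 1 Cd44 was at 0.49, and Prom1 (-0.04), Sox9 (0.09) and Sox4 (0.03) were near 0. The median of the members was 0.16 in set 1 and 1.28 in set 2, and that of all features -0.11 and 0.08.

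Between proximal and basal cells, 3 of 8 members were past 2-fold in set 1 (35.4% of all features) and 3 of 8 in set 2 (33.9%). Prom1 was higher in proximal cells, with log2 ratios of 4.96 and 3.88. Sox2 was lower, with log2 ratios of -1.29 and -2.46. Sox4 was lower past 2-fold in set 1 (-1.26) and at -0.84 in set 2, and Cd44 was at 0.79 in set 1 and past 2-fold in set 2 (1.31). Sox9 was near 0.5 in both sets (0.46 and 0.53). Aldh1a1 (0.06 and -0.39) and Bmi1 (0.02 and 0.86) stayed under 2-fold. Kit was at 0.04 in set 1 and, with 0 basal UMIs, at least 1.99-fold higher in proximal cells of set 2. These counts were close to the share over all features in each of the 3 class comparisons of set 1.

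Across the 17 epithelial cluster and set sums with at least 50 cells, Prom1 was highest in the cluster led by 9530053A07Rik, Ren1 and Tgm4 (a secreted prostate transglutaminase). It had 63.3 CPM there in set 1 and 105 CPM in set 2, with thinned shares of 19.0% and 25.2%. This cluster held 108 of the 244 Prom1-positive epithelial cells of set 1 (44.3%) and 67 of 92 in set 2 (72.8%). The Mt4-led, Gja1-led and Defa22-led clusters, which made up most luminal cells of set 2, had 0.18 to 0.26 CPM. In set 2 luminal Prom1 was therefore concentrated in 1 cluster. In set 1 the other main luminal clusters also had Prom1, at 23.1 CPM in the Msmb-led and 12.4 CPM in the Krt6a-led cluster.

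Sox2-positive cells were concentrated in the basal cluster, with 135 of 197 positive cells in set 1 (68.5%) and 18 of 19 in set 2 (94.7%). Outside it, Sox2 was highest in the Msln-led proximal cluster, at 14.6 CPM in set 1 and 4.82 in set 2. Cd44 was highest in the same Msln-led cluster, at 537 and 558 CPM, and was 501 CPM in the Krt6a-led luminal cluster of set 1. The Msmb-led cluster of set 1 had 49.8 CPM and the Mt4-led cluster of set 2 had 7.44, the lowest of all. Within luminal clusters Cd44 thus spanned a wider range than between the classes of set 1.

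Aldh1a1 differed more between clusters than between classes. It was highest in the set 1 cells of the Svs5-led cluster (467 CPM), whose set 2 cells had 85.7 CPM. Without integration the Svs5-led cluster held 0 cells of set 1, so these set 1 cells may be of another type. The Msmb-led cluster of set 1 had 211 CPM and the Mt4-led cluster of set 2 had 164, whereas the Defa22-led cluster had 27.5 and the 9530053A07Rik-led cluster 42.7 and 26.5. Sox9 was highest in the Krt6a-led (573 CPM in set 1, 436 in set 2) and Msln-led clusters (527 and 568). Bmi1 was highest in the 9530053A07Rik-led cluster, at 16.8 and 21.9 CPM, the cluster with the highest Prom1. Kit in set 2 was highest in the Defa22-led (5.61 CPM) and Gja1-led (5.46) clusters, and was 0.30 CPM in the 9530053A07Rik-led cluster.

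**Figure D3:**
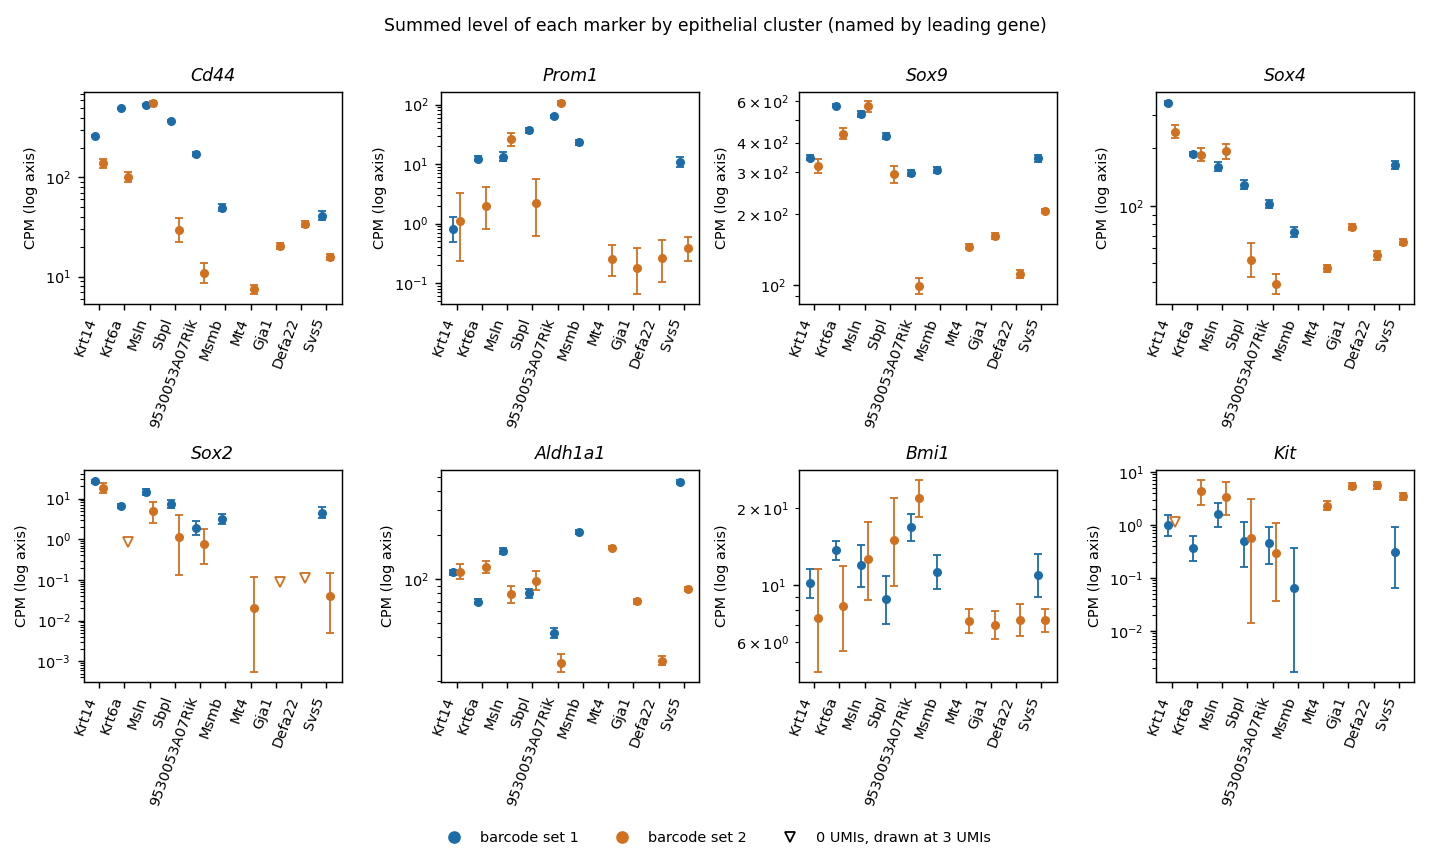
Level of each member in CPM on a log axis in 10 epithelial clusters named by their leading gene, by barcode set, with exact Poisson 95% intervals; open triangles mark 0 UMIs drawn at 3 UMIs. Prom1 is highest in the 9530053A07Rik-led cluster (63.3 and 105 CPM), Sox2 in the Krt14-led basal cluster (26.5 and 18.3 CPM) and Aldh1a1 in the set 1 cells of the Svs5-led cluster (467 CPM). Without integration the Svs5-led cluster held 0 cells of set 1.

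The EGFP feature, taken as the mGFP reporter from its name, was used to split each class. After thinning to 3000 UMIs, the leukocytes of each set gave the background, so the split was set separately in each set. Since the leukocytes came mainly from different clusters in the 2 sets, these limits mix leukocyte type with set. EGFP-low cells had 0 UMIs in set 1 and at most 1 in set 2, and EGFP-high cells had more than 1 and more than 13.9 UMIs. EGFP-high cells made up 29.4% and 43.6% of basal, 8.92% and 91.9% of luminal, and 16.8% and 41.2% of proximal cells. Leukocytes had 72.0 CPM of EGFP in set 1 and 1249 CPM in set 2.

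In basal cells of set 1, Cd44 was 117 CPM in the 491 EGFP-high cells and 337 CPM in the 1058 EGFP-low cells (log2 ratio -1.52, interval -1.63 to -1.42). Sox2 was 12.2 against 34.1 CPM (-1.48, interval -1.82 to -1.15). These 2 of 8 members were past 2-fold, both lower in EGFP-high cells, against 8.7% of all features. Aldh1a1 went the other way, at 154 against 84.95 CPM (0.86). Sox9 (-0.46), Sox4 (-0.31) and Bmi1 (0.34) were under 2-fold, as were Prom1 (-0.59) and Kit (0.20), whose intervals spanned 0. In set 2, with 147 EGFP-high and 116 EGFP-low cells, Sox2 was again lower (7.97 against 33.8 CPM, -2.08, interval -3.29 to -1.01). Bmi1 was the other of 2 members past 2-fold, against 6.08% of all features, with an interval that spanned 0 (1.04, -0.68 to 3.13, from 16 UMIs). Cd44 did not differ beyond counting error in set 2 (142 against 158 CPM, -0.16, interval -0.49 to 0.17). Sox9 (-0.05), Sox4 (-0.42) and Aldh1a1 (0.08) were also under 2-fold, and Prom1 and Kit had too few UMIs for a ratio. Median depths were close in set 2 (6046 and 5838 UMIs) and 13205 and 10329.5 UMIs in set 1. The summed basal markers moved in the same direction as Cd44 and Sox2, at 8205 against 12879 CPM in set 1 (6 of 6 lower) and 7882 against 8957 in set 2 (3 of 6 lower). Their part in the result was not tested.

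In luminal cells of set 1, Cd44 was 160.1 CPM in the 194 EGFP-high cells and 338 CPM in the 1842 EGFP-low cells (log2 ratio -1.08, interval -1.17 to -0.99). Aldh1a1 was 195 against 87.8 CPM (1.15, interval 1.06 to 1.24). With Sox2 (-1.0, 18 EGFP-high UMIs), 3 of 8 members were past 2-fold, against 10.3% of all features. Prom1 (-0.24), Sox9 (-0.20), Sox4 (-0.23), Bmi1 (-0.02) and Kit (-0.26, from 21 UMIs) were under it. Clusters moved with this split as well. The Msmb-led cluster held 88 of the 194 EGFP-high and 285 of the 1842 EGFP-low cells, and the Krt6a-led cluster 61 and 1047. Inside these clusters Cd44 was at -0.67 and -0.31 and Aldh1a1 at 0.39 and 0.36, all under 2-fold. Cycling markers summed to 3.98 CPM in the EGFP-high and 16.3 CPM in the EGFP-low cells, and their part was not tested. In set 2, 5 of 8 were past 2-fold, against 35.5%. Prom1 was 1.09 CPM in 5213 EGFP-high cells and 116 CPM in 146 EGFP-low cells (-6.73, interval -7.04 to -6.43). Aldh1a1 was 102 against 21.7 CPM (2.23) and Bmi1 7.40 against 21.4 (-1.53). Kit (3.78) and Sox2 (-5.02) rested on 1 and 4 UMIs in the EGFP-low cells. Cd44 (0.31), Sox9 (0.73) and Sox4 (0.52) were under 2-fold. Of these 146 EGFP-low cells, 140 belonged to the 9530053A07Rik-led cluster, so reporter level and cluster could not be separated here. The EGFP-low cells also had a higher median depth (20784.5 against 15723 UMIs) and less RNA of all 4 cycling markers (3.87 against 31.5 CPM in sum), whose part was not tested.

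In proximal cells of set 1, Cd44 was 245 CPM in the 100 EGFP-high and 507 CPM in the 460 EGFP-low cells (log2 ratio -1.05, interval -1.16 to -0.95). Prom1 was 10.96 against 28.5 CPM (-1.38, interval -1.90 to -0.90). Kit (1.30, interval -0.29 to 2.76, 19 UMIs in all) made up the 3 of 8 members past 2-fold, against 7.49% of all features. Sox4 (-0.73), Aldh1a1 (0.82), Sox2 (-0.43), Bmi1 (0.23) and Sox9 (0.12) were under it. The Msln-led cluster held 72 of the EGFP-high and 205 of the EGFP-low cells. Inside it Prom1 was at -0.62 with an interval that spanned 0 (-1.35 to 0.05). The summed basal markers were 4331 CPM in the EGFP-high and 2268 CPM in the EGFP-low cells, and their part was not tested. In set 2, with 91 and 59 cells, 1 of 8 was past 2-fold, against 12.7%. That was Prom1 in the opposite direction, at 24.3 against 8.10 CPM (1.58, interval 0.53 to 2.80). The others ranged from 0.07 for Sox2 to 0.61 for Sox4, with Kit (0.58), Cd44 (0.38), Aldh1a1 (0.34), Bmi1 (0.20) and Sox9 (0.15) in between. Clusters moved with this split, since 80 of the 91 EGFP-high cells and 21 of the 59 EGFP-low cells of set 2 were in the Msln-led cluster. Leukocyte markers summed to 16.7 CPM in the EGFP-high and 42.3 CPM in the EGFP-low cells of set 2. Of the 7 markers, 5 were higher in the EGFP-low cells and Cd3e had 0 UMIs on both sides. Markers of smooth muscle (43.2 against 0.9 CPM), endothelium (31.8 against 5.4) and cycling cells (22.7 against 2.7) were higher in sum in the EGFP-high cells. The part of all these markers was not tested.

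**Figure D4:**
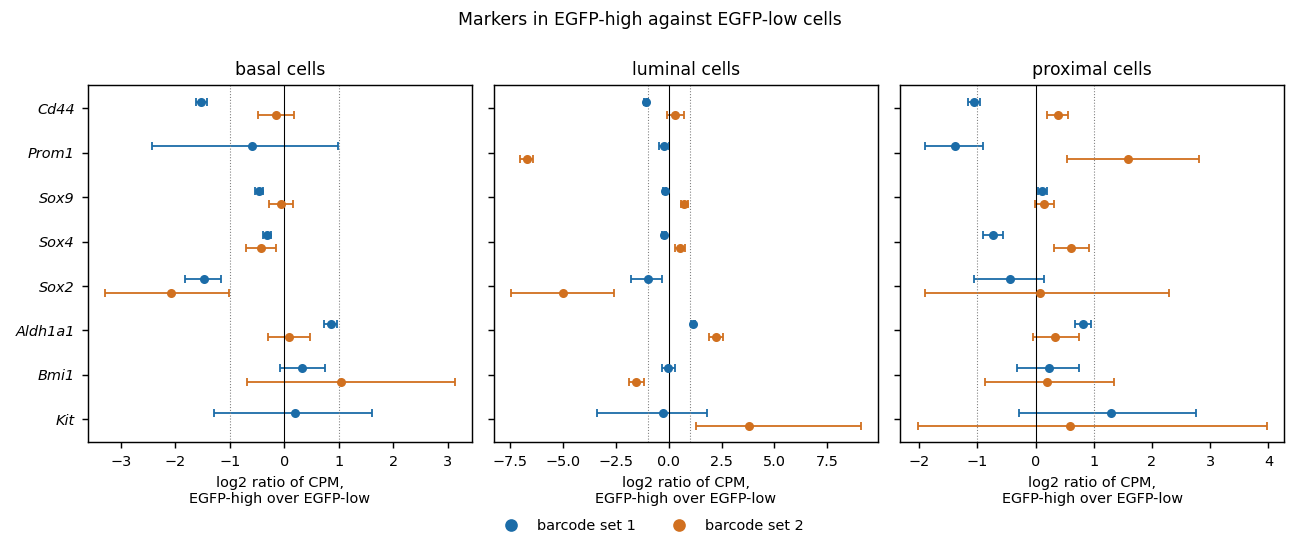
Log2 ratio of the CPM of each member in EGFP-high over EGFP-low cells, by class (with a separate axis each) and barcode set, with 95% intervals for counting error and dotted lines at 2-fold. Prom1 and Kit have no ratio in basal cells of set 2. In set 1 Cd44 lies below 0 in all 3 classes (-1.52, -1.08 and -1.05) and Aldh1a1 above 0 (0.86, 1.15 and 0.82).

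Within single clusters of at least 50 cells a side, Aldh1a1 had a positive ratio and Cd44 a negative ratio in all 6 cluster and set combinations. For Cd44 the log2 ratio was -1.52 in the Krt14-led, -1.45 in the Msln-led, -1.44 in the Svs5-led, -0.67 in the Msmb-led and -0.31 in the Krt6a-led cluster of set 1. The sixth value, -0.16 in the Krt14-led cluster of set 2, had an interval that included 0. Aldh1a1 ratios were 0.86 in the Krt14-led, 0.53 in the Svs5-led, 0.50 in the Msln-led, 0.39 in the Msmb-led and 0.36 in the Krt6a-led cluster of set 1. That in the Krt14-led cluster of set 2, 0.08, again spanned 0. Both differences were thus seen inside each cluster of set 1 that could be split. Basal subgroups also differed in EGFP. At resolution 1.0, with both sets pooled, the Ltbp4-led basal cluster had 5356 CPM of EGFP. A smaller Krt14-led basal cluster had 628 CPM and the Aqp3-led basal cluster 417 CPM. The part of these subgroups was not tested. Sox2 was negative with an interval below 0 in the Krt14-led clusters of both sets and in the Svs5-led and Krt6a-led clusters of set 1. In the Msln-led cluster of set 1 Sox2 was at -0.59, with an interval that spanned 0 (-1.28 to 0.05). In the Msmb-led cluster it was 0.07, from 12 and 36 UMIs. The 5 combinations of set 1 share a library, and only the Krt14-led cluster could be split in set 2.

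Between the barcode sets, basal cells had 0 of 7 members with a ratio past 2-fold, against 15.2% of all features. Cd44 was nearest to it, 1.86-fold lower in set 2 (log2 ratio -0.90, interval -1.05 to -0.75). Sox2 (-0.54), Sox4 (-0.49), Bmi1 (-0.45), Sox9 (-0.12), Aldh1a1 (0.02) and Prom1 (0.45) lay closer to 0, and Kit had no ratio. In proximal cells 2 of 8 were past 2-fold, against 15% of all features. These were Sox2, lower in set 2 (-1.70), and Kit (1.11, interval -0.14 to 2.28). Prom1 (-0.63), Aldh1a1 (-0.44), Cd44 (-0.38), Sox4 (-0.07), Sox9 (-0.05) and Bmi1 (0.39) were under 2-fold. In luminal cells 6 of 8 were past 2-fold, against 40.1%. Sox2 (-6.11), Cd44 (-4.00), Prom1 (-2.07), Sox9 (-1.59) and Sox4 (-1.20) were lower in set 2, and Kit (3.61) was higher. Bmi1 was at -0.78, and Aldh1a1 was level (-0.01, interval -0.05 to 0.03).

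The luminal difference was set against single clusters present in both sets after integration. Without integration, the Krt6a-led cluster held 1435 cells of set 1 and 17 of set 2. Tgm4 was then among the leading genes of a Chn2-led cluster (378 and 18 cells) and a Ren1-led cluster (1 and 234). EGFP in the integrated Krt6a-led cluster was 263 CPM in set 1 and 9404 in set 2. Ratios inside a cluster may therefore compare different cells, which was not tested. In the 9530053A07Rik-led cluster Cd44 was 172 CPM in set 1 and 10.9 in set 2 (log2 ratio -3.98), and in the Krt6a-led cluster 501 and 101 CPM (-2.31). In the Msln-led proximal cluster Cd44 was 537 and 558 CPM (0.05, interval -0.03 to 0.14), whereas in the Sbpl-led proximal cluster it was 371 and 29.5 CPM (-3.65). The 2 proximal clusters therefore differed in opposite ways from their class value of -0.38. Without integration, at resolution 1.0, an Sbpl-led cluster named luminal held 4 cells of set 1 and 95 of set 2. A Cxcl17-led proximal cluster held 314 and 0. The Sbpl-led value of -3.65 may therefore compare different cells in the 2 sets. Prom1 was higher in set 2 in the 9530053A07Rik-led (0.73, interval 0.59 to 0.88) and Msln-led clusters (0.96, interval 0.52 to 1.39) and lower in the Krt6a-led (-2.63), Sbpl-led (-4.05) and Svs5-led clusters (-4.81). Aldh1a1 was lower in set 2 in the Svs5-led cluster (-2.45) and higher in the Krt6a-led cluster (0.80). Kit was 0.37 CPM in set 1 and 4.29 CPM in set 2 in the Krt6a-led cluster, and 0.45 and 0.30 CPM in the 9530053A07Rik-led cluster.

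**Figure D5:**
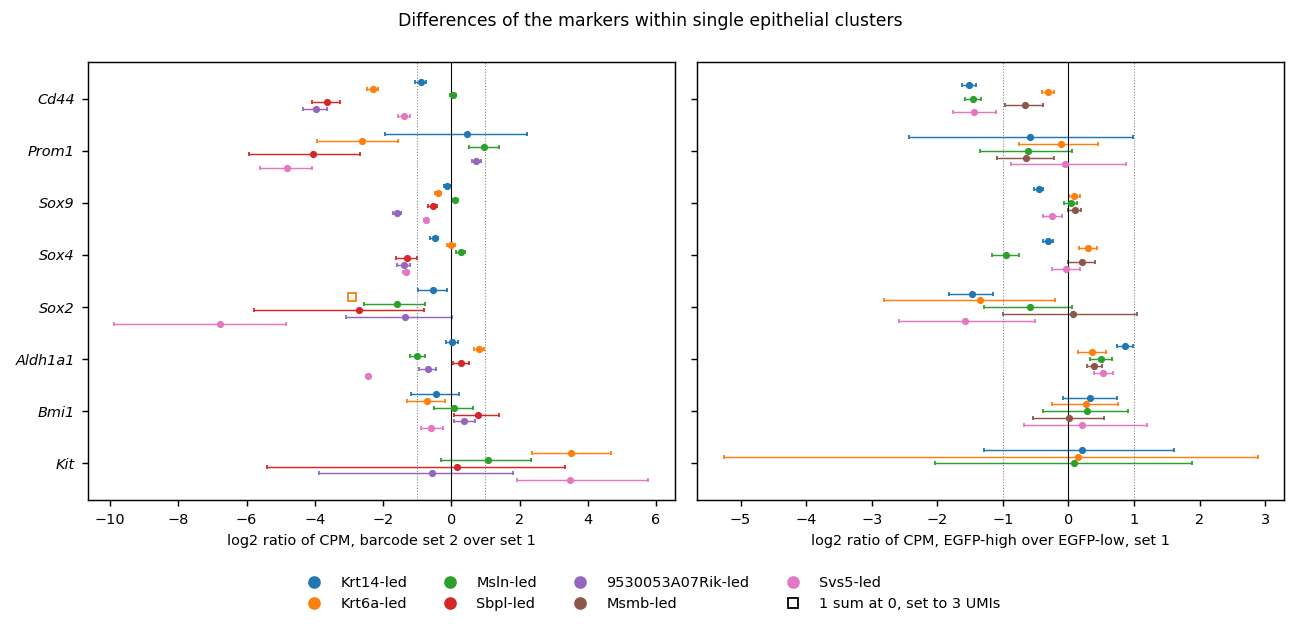
Log2 ratio of CPM for the members inside single clusters with at least 50 cells on each side, for set 2 over set 1 (left) and for EGFP-high over EGFP-low cells of set 1 (right), with 95% intervals for counting error, dotted lines at 2-fold and an open square where 1 sum was 0 and set to 3 UMIs. On the right Cd44 lies between -1.52 and -0.31 and Aldh1a1 between 0.36 and 0.86, and on the left Cd44 ranges from -3.98 in the 9530053A07Rik-led to 0.05 in the Msln-led cluster. The clusters are those formed after integration of the sets.

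A wider list of 25 other progenitor genes, of which 24 were in the table, was counted in the same way. For basal against luminal cells, 13 of 23 with a ratio were past 2-fold in set 1 and 16 of 22 in set 2, beside 41.5% and 47.9% of all features. Genes past 2-fold in both sets were higher in basal cells for 8 of them. Among these, Procr (endothelial protein C receptor) had 31.1 against 4.94 CPM in set 1 and 119 against 1.09 in set 2, and Itgb1 (integrin beta-1) 854 against 308 and 591 against 85.5. Psca (prostate stem cell antigen) had 1854 against 658 and 437 against 44.6 CPM, and Aldh3a1 50.4 against 5.68 and 10.1 against 0.067. Lrig1, Abcg2, Nes and Msi1 were the others, at 0.37 to 16.1 CPM in basal cells. Msi1 rested on 1 basal and 4 luminal UMIs in set 2, with an interval of the log2 ratio that spanned 0 (-2.15 to 6.81). Msi2 (42.9 against 106 and 60.5 against 142 CPM) was lower in basal cells in both sets.

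For proximal against luminal cells, 5 of 23 genes of the wider list were past 2-fold in set 1 and 15 of 23 in set 2, beside 16.3% and 32.2% of all features. Psca, Lrig1 and Abcg2 were higher in both sets, with Psca at 7287 against 658 CPM and 2734 against 44.6. Between proximal and basal cells, 12 of 22 and 11 of 21 were past 2-fold, beside 35.4% and 33.9% of all features. Psca, Aldh1a3 (87.2 against 23.6 and 87.7 against 20.5 CPM) and Cd24a (1896 against 606 and 1342 against 586) were higher in proximal cells in both sets. Itgb1, Procr, Aldh3a1 and Nes were lower. Lgr5, at most 4.23 CPM, took opposite directions, with an interval that spanned 0 in set 2.

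By reporter level, 2 genes of the wider list were past 2-fold the same way in both sets in proximal cells. Ly6a (Sca-1) was 7807 CPM in EGFP-high and 3130 CPM in EGFP-low proximal cells of set 1, against 1744 and 697 CPM in those of set 2. Psca was 21253 against 4099 and 4379 against 1958 CPM. Psca is 1 of the leading genes of the Msln-led cluster, which held more of the EGFP-high than of the EGFP-low proximal cells in both sets (72 of 100 against 205 of 460, and 80 of 91 against 21 of 59). Reporter level and cluster cannot be told apart in these values. In luminal cells Aldh3a1 and Nes were lower in EGFP-high cells in both sets, at levels of at most 5.80 CPM. The Aldh3a1 ratio of set 2 rested on 6 and 1 UMIs, with an interval that spanned 0. In basal cells no gene of the wider list was past 2-fold in the same direction in both sets, with 6 of 22 past it in set 1 and 2 of 19 in set 2, beside 8.7% and 6.08% of all features.

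Finally, the genes whose levels followed each member most closely were listed by Pearson's r of log2(CPM + 10) over the 17 cluster and set sums, as a description. Sums of 1 set share a library. Cd44 was nearest to Slk (r = 0.95), Slc35e4 (0.95) and Tm4sf1 (0.94), and Sox2 to Tpm2 (0.97), Dennd2c (0.96) and Rgs12 (0.96). Prom1 was nearest to Ralgapb (0.92), Slc35a3 (0.91) and Zfp106 (0.91), and Bmi1 to Ppp1r13b (0.95), Unc13b (0.93) and Dhx40 (0.93). Sox9 was nearest to Gadd45b (0.91), Slc25a24 (0.90) and Baiap2l1 (0.89), and Sox4 to Cmip, Capza2 and Sh3glb1 (0.93 each). Genes close to Aldh1a1 were more distant, with Fkbp5 at 0.75 and Klk1b24 at 0.74. Kit (Dctn4, 0.85) and Sox2 had mean levels of 2.03 and 5.83 CPM, under the pseudocount of 10, which flattens their pattern.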

How the data were processed

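Single cells from 2 prostate samples (PIN and PCa, 1 library each) were analysed. Per the labels and the methods of the study, UMIs were counted with Cell Ranger 3.1.0 against mm10 with the transgene and reporter sequences added, and cells rich in mitochondrial RNA were removed. The deposited table held the natural log of 1 plus each gene's UMIs scaled to 10000 per cell. Whole UMI numbers were recovered for 100% of the values above 0, within 0.001 of a whole number. Barcode endings were not mapped to tissues, and cell numbers in the methods of the study were not used to map them.

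Scrublet (scanpy 1.11.5, expected rate 6%) was applied to each set. Because its automatic limit called 0 cells, a score of 0.25 was used, which removed 155 cells (2.45%) of set 1 and 175 (1.86%) of set 2. The 15412 cells left were integrated by anchors between the sets and clustered in Seurat 5.3.0 (R 4.3.3; 2000 variable features, 30 principal components, 20 dimensions, resolution 0.5). Epithelial cells were clustered again with the cell cycle regressed. Members and EGFP were held out of the features. A cluster took its highest marker class if at least 3 markers were seen in 25% of its cells. Clusters whose top 10 genes pointed more to another class were not named, nor, by a rule set after the data were seen, were those with 3 or more markers of a non-epithelial class. Leukocytes were pooled from 4 clusters, 2 of them shallow and unnamed.

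UMIs were summed per class and set (CPM, exact Poisson 95% intervals). Shares were taken after thinning to 3000 UMIs (Clopper-Pearson 95% intervals), and log2 ratios carried conditional binomial intervals. Sums of 0 were raised to 3 UMIs. No ratio was given where both sums were at most 3, or where that floor lay above the other side. The reporter split used the leukocytes of each set, low being at or under their median and high above their 95th percentile. All 8 members were compared in every comparison, whether past 2-fold or not. Genes of the wider list were named when past 2-fold in both sets, as were the 3 genes nearest to each member among those with a mean of at least 20 CPM. A few genes that met these rules are not reported here. Members and lists were chosen with earlier results of these data known. Alternatives were thinned sums, equal weight per cell, totals without genes over 1% of UMIs, a low-count filter, doublets kept, resolution 1.0, no integration, other reporter splits and single clusters. The calculations were tested on simulated data. Depth ranged from 1722 to 89183 UMIs per cell.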

Additional observations from a re-analysis of the deposited data

Results flagged for a closer look

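The ratio of Kit in basal over luminal cells took opposite directions in the sets, with a log2 ratio of 1.65 in set 1 and -1.79 in set 2, the latter set by the floor for 0 basal UMIs. The ratio of Prom1 in EGFP-high over EGFP-low proximal cells did the same, with -1.38 in set 1 and 1.58 in set 2. The Msln-led cluster held 72 of 100 EGFP-high and 205 of 460 EGFP-low cells in set 1, and 80 of 91 and 21 of 59 in set 2. Inside it the ratio of set 1 was -0.62, with an interval that spanned 0 (-1.35 to 0.05). The difference between the sets was not tested in either case.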

How the results depend on the processing

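Over all alternatives, 102 of 125 counts of members past 2-fold stayed within 1.5 times the reported count. Of the log2 ratios, 849 of 919 stayed on their side of 2-fold, and 7 reported as past 2-fold reversed. Changes of sign among ratios that stayed under 2-fold were not counted. With UMIs thinned to 3000 per cell, the count was 0 in place of 2 for proximal against luminal cells of set 1, 2 in place of 5 for the reporter split of luminal cells of set 2, 2 in place of 0 between sets in basal cells and 1 in place of 2 in proximal cells. With every cell weighing the same, it was 2 in place of 1 for the reporter split of proximal cells of set 2, 1 in place of 0 between sets in basal cells and 1 in place of 2 in proximal cells. For the reporter split of basal cells of set 2, leaving out members under 20 UMIs gave 1 in place of 2. Without integration the count was 1 in place of 2 for that split, 1 in place of 3 for the split of luminal cells of set 1, and 4 in place of 2 between sets in proximal cells. A split at 1 or more EGFP UMI against 0 gave 0 in basal cells of set 2, 0 in luminal and 1 in proximal cells of set 1, in place of 2, 3 and 3. Comparing the highest with the lowest tertile of EGFP gave 0 and 1 for luminal cells of sets 1 and 2 in place of 3 and 5, and 0 in proximal cells of both sets in place of 3 and 1. Among alternatives added after the data were seen, the reporter split in set 1 gave 1 in the Krt6a-led and 0 in the Msmb-led cluster (in place of 3 in luminal cells) and 1 in the Msln-led cluster (in place of 3 in proximal cells), and the Sbpl-led cluster alone gave 4 between sets. Thinning to 6000 UMIs left 9 of 48 shares inside the reported interval, since deeper thinning raises shares. The cause of the other changes was not tested.

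Sox2 reversed in the reporter split of luminal cells of set 1 (-1.0), to 0.34 with thinned UMIs, 0.085 with the split by tertiles and 0.072 in the Msmb-led cluster. Without integration, the reporter split of proximal cells of set 1 gave 0.021 for Prom1 and -1.39 for Kit, in place of -1.38 and 1.30. Between sets, the 9530053A07Rik-led cluster alone gave 0.73 for Prom1 and -0.58 for Kit, in place of -2.07 and 3.61 in all luminal cells. The reporter split of proximal cells of set 2 could not be made with doublets kept, without integration or at 1 or more EGFP UMI against 0, because a side held under 50 cells. No paired analysis was possible because each sample was 1 library, and leaving out a replicate was not possible for the same reason. Kit, and Sox2 outside basal cells, rested on few UMIs, so depth limits their ratios.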

Other observations

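Several members reached their highest levels outside the epithelium. In the endothelial cells of set 2 (170 cells), Sox4 was 1166 CPM, Kit 88.6 CPM and Bmi1 38.5 CPM, whereas Cd44 was 5.06 CPM and Sox2 had 0 UMIs. In set 1, Kit ranged from 24.3 CPM in the Jchain-led leukocyte cluster to 58.1 CPM in an unnamed Rgs1-led cluster, with 48.5 CPM in an unnamed Ccl5-led cluster and 41.3 CPM in the C1qa-led leukocyte cluster. The C1qa-led cluster of set 2 had 0 UMIs of Kit. The Apod-led cluster, which stayed unnamed and holds fibroblast genes, had 182 and 117 CPM of Aldh1a1 in sets 1 and 2, 235 and 245 CPM of Cd44, and 13.6 and 22.5 CPM of Prom1.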
